A study of Mus musculus with 12 samples.

Results

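The subject was the circular RNA (circRNA) peaks of N6-methyladenosine (m6A) that had no entry in the mRNA list of their own library. A circRNA peak was kept when its peak identifier was missing from that mRNA list, which left 1180 of 7491 circRNA peaks (15.8%). Peaks of the 6 lists that overlapped by 1 bp or more were merged into 516 regions, out of 2366 regions when every circRNA peak was merged in the same way. These regions are called mRNA-absent regions here, and the circRNA peaks whose identifier the mRNA list also held are called shared peaks. The shared peaks merged to 1873 regions.

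The cells were C17.2, an immortalised line of mouse neural stem cells (NSCs) labelled wild type. The control group was cultured without treatment, and the hypoxia/reoxygenation (H/R) group spent 12 h at 5% O2 followed by 48 h under standard oxygen. Methylated RNA immunoprecipitation sequencing (MeRIP-seq) compares fragments pulled down by an m6A antibody (IP) with the unselected input, and the labels gave 12 samples, that is, IP and input with 3 samples each in both groups. The lists came as 3 control and 3 H/R libraries lettered A to C, and the labels did not say that these were separate cultures, so a p-value here measures only the spread between samples, which may be technical. C17.2 is a single established line, and peak lists hold no expression level, so the cell type could not be checked by its markers.

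A circRNA arises when a downstream splice donor is joined back to an upstream acceptor, which closes one or several exons, sometimes with introns, into a ring without a cap or a poly(A) tail. m6A is placed on nascent RNA by the METTL3 and METTL14 complex, mostly within the consensus DRACH (D stands for any base but C, R for a purine, H for any base but G), and circRNAs as well as linear RNAs of a gene can carry it. A linear transcript and a circle from the same exons yield the same fragments unless a fragment crosses the back-splice junction. The methods named no enzyme that removes linear RNA, and the lists give only positions, so a circRNA in these lists is a listed circle that covers the peak, not a molecule shown to carry it.

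The regions fell into sets of plainly different character, depending on the lncRNA list of the same library. In 169 regions at least 1 peak was also in the lncRNA list, and in 347 regions no peak was. The first set lay on short exons, the second in long stretches of intron. To show what each looks like, reference sequence (RefSeq copy of GRCm38, the mm10 build of the lists) is given on the strand of the listed circRNA, with every DRACH site in capitals. The exons below, whole annotated coding exons that a circle of the host covers, stood in the lncRNA list. The first 5 were called in the 3 H/R libraries only, Ywhae was called in all 6 and Top2a led the exonic type with a lowest p score of 3100 (10 times −log10 of the p that the authors deposited).
Mphosph10, chr7:64384302-64384369, minus strand: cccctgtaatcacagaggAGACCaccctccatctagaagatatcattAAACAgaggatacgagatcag
Rbm39, chr2:156167685-156167750, minus strand: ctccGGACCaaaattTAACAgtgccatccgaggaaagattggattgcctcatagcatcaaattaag
Hp1bp3, chr4:138228644-138228787, plus strand: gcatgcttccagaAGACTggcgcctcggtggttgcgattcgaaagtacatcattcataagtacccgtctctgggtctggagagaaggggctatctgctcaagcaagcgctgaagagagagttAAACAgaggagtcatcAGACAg
Smarca5, chr8:80708683-80708805, minus strand: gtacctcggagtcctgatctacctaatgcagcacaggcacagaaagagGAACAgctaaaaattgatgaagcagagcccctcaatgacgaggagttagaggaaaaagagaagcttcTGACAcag
Kat6b, chr14:21624833-21624888, plus strand: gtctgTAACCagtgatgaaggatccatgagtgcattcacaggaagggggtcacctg
Ywhae, chr11:75751881-75752080, plus strand: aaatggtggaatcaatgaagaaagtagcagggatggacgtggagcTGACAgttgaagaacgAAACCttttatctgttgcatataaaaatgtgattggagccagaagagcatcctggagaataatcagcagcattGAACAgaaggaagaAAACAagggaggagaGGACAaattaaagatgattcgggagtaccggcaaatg
Top2a, chr11:98999162-98999347, minus strand: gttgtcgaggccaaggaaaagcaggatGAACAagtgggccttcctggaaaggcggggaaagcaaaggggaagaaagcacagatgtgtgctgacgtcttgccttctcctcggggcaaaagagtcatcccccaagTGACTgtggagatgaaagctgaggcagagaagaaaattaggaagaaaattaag

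Longer regions are shown by the 150 bases of the region with the most DRACH sites. Malat1 is a noncoding RNA, Erdr1 lies outside annotated genes, and the other 3 windows are intron.
Malat1, chr19:5801908-5802057, minus strand: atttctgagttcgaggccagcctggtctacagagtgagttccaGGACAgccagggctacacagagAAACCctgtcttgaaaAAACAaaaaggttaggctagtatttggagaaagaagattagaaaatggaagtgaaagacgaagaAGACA
Erdr1, chrY:90734833-90734982, plus strand: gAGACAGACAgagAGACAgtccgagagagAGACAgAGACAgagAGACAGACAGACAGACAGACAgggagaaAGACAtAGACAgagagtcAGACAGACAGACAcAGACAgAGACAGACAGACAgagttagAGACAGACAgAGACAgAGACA
Ankib1, chr5:3764576-3764725, minus strand: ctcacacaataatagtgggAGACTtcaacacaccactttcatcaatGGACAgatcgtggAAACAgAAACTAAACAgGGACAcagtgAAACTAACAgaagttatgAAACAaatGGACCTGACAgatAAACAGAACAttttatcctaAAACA
Ubn2, chr6:38445831-38445980, plus strand: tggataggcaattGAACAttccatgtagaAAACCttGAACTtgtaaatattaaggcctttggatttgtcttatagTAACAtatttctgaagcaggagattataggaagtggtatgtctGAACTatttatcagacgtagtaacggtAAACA
Hdac8, chrX:102329084-102329233, minus strand: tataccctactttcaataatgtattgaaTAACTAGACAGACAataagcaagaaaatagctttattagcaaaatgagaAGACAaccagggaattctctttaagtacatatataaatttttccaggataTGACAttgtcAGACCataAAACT

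The first question was how many such peaks each library held. The lists held 162, 104 and 80 mRNA-absent peaks in control A to C and 265, 187 and 382 in H/R A to C. Every H/R library was above every control library, at 278 ± 98.1 against 115 ± 42.2 peaks (n = 3 each, ± SD, exact permutation test, two-sided, p = 0.1, the smallest that 3 against 3 libraries allow, and 0.257 after Benjamini-Hochberg adjustment over 9 comparisons). As a share of the circRNA peaks they made up 15.1%, 12.9% and 11.3% in control A to C and 16.3%, 14.1% and 19.6% in H/R A to C, which overlap between groups (difference 3.58 percentage points, exact permutation p = 0.2).

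The higher number in H/R depended on how peaks were selected. At a p score of 100 or more it was still seen, with 106 more peaks per library in H/R (exact permutation p = 0.1). Where the fold enrichment was 10 or more (the ratio of IP to local background that the authors deposited), the H/R group exceeded the control by 1.67 peaks per library (exact permutation p = 1). With every circRNA list cut to its 705 peaks of highest p score, each H/R list held fewer mRNA-absent peaks than each control list, by 12.3 on average (exact permutation p = 0.1). The whole lists held 1076, 809 and 705 peaks in control A to C and 1625, 1329 and 1947 in H/R A to C. The median p score per library was 130 to 212 in the mRNA-absent peaks against 297 to 529 in the shared peaks. The cut thus bears more on mRNA-absent peaks and on the longer H/R lists, and its part in the turn was not tested. The median fold enrichment of these peaks was 20.7, 26.9 and 26.3 in control A to C and 7.79, 13.9 and 7.84 in H/R A to C, so the groups did not overlap (exact permutation p = 0.1, adjusted p = 0.257). The shared peaks showed the same order, with medians of 21.6, 31.0 and 25.1 in the controls and 8.68, 14.7 and 9.04 in H/R, so a minimum on fold enrichment removes more of the H/R lists. The authors' false discovery rate was weak throughout. No mRNA-absent peak had a rate of 5% or less, and the median rate was 100% in 4 libraries, 89.1% in H/R A and 78.5% in H/R C.

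H/R C had the most regions called in a single library. It also had the longest circRNA list, at 1947 peaks, and the count of such regions was not made over all circRNA regions. Of the 289 regions called in a single library, 183 were called only in H/R C, 69 only in H/R A, 21 only in H/R B, and 13, 2 and 1 only in control A to C. Without H/R C the difference between group means was 111 peaks in place of 163 (exact permutation p = 0.2, the smallest that 3 against 2 libraries allow). How far lists overlapped varied. H/R A shared 61.0% of its regions with H/R C and H/R B 71.9%, which is 43.3% and 36.4% of those of H/R C. Control B shared 85.3% of its regions with control A, which is 54.0% of those of control A, and it shared 87.3% with H/R C, which is 24.4% of those of H/R C.

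**Figure D1:**
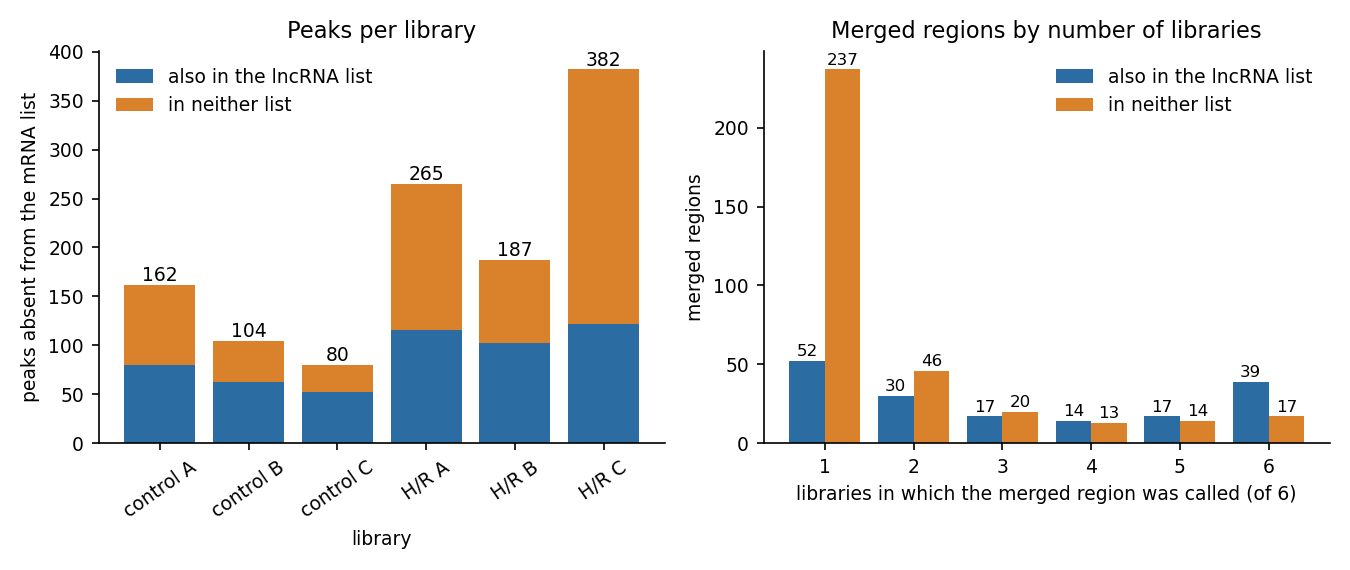
Left, number of mRNA-absent circRNA peaks in each library, stacked by presence in the lncRNA list. Right, number of merged regions by how many of the 6 libraries called them, for the same sets. The number of peaks in neither list ranged from 28 in control C to 260 in H/R C, and 237 of these 347 regions were called in 1 library.

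The set in the lncRNA list was the steadier of the 2 sets across libraries. It held 80, 62 and 52 peaks in control A to C and 116, 102 and 122 in H/R A to C, which do not overlap (64.7 ± 14.2 against 113 ± 10.3, SD, n = 3 each, exact permutation p = 0.1). The set in neither list held 82, 42 and 28 peaks in control A to C and 149, 85 and 260 in H/R A to C (50.7 ± 28.0 against 165 ± 88.5, SD, n = 3 each, exact permutation p = 0.1). The shared peaks did not overlap between groups either, at 748 ± 149 against 1356 ± 212 (SD, n = 3 each). The higher counts of both sets thus came with longer circRNA lists in H/R. Those lists held 1076, 809 and 705 peaks in control A to C and 1625, 1329 and 1947 in H/R A to C. Neither set's share of those lists was computed, so no rise of a set relative to its list is read from these counts. The share of mRNA-absent peaks in the lncRNA list was 58.0% ± 7.93 in the control and 43.4% ± 11.3 in H/R (SD, n = 3 each, exact permutation p = 0.2). With lists of equal length this difference turned, to 12.7 percentage points higher in H/R (exact permutation p = 0.1).

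What lay under the peaks differed between the sets. Overlaps with the GENCODE vM21 annotation were taken without regard to strand. A noncoding transcript or exon here is one of any transcript type other than protein coding, also within coding genes. In the lncRNA-list set 144 of 169 regions (85.2%) overlapped coding sequence, 19 overlapped only exons of noncoding transcripts, 4 only untranslated regions and 2 only introns. The lncRNA named for such a peak carried the symbol of the circRNA's own host gene in 140 regions (82.8%). In a separate count that came to the same number but not to the same regions, the files gave the lncRNA an exon sense-overlapping relation to coding genes in 140. Of the set's peaks on coding sequence, 91.2% to 95.7% per library also lay on an exon of a noncoding GENCODE transcript on the circRNA's strand, against 58.4% to 62.4% of the shared peaks on coding sequence. No peak identifier stood in both the mRNA and the lncRNA list, so that 0 shared peaks were in the lncRNA list by construction. No mRNA-absent peak overlapped an mRNA peak of its library in position either.

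In the set found in neither list, 295 of 347 regions (85.0%) were intronic, 39 (11.2%) lay outside annotated genes, 10 on noncoding exons, 2 on untranslated regions and 1 on coding sequence. The host circles of these regions were long. For all 347 the predicted circRNA length in the files equalled the whole genomic span of the circle, introns included, and its median per library ran from 35918 to 61954 bases, against 1005 to 1412 bases for the lncRNA-list set. The median region measured 639 bases in the set in neither list and 181 bases in the lncRNA-list set, and all 516 ran from 6 to 10416 bases. Reference repeats (soft-masked bases) covered 48.1% to 61.9% of the bases of the peaks in neither list, 12.9% to 29.5% in the lncRNA-list set and 9.82% to 12.2% in the shared peaks. The authors removed reads that mapped to more than one place and kept the uniquely mapped ones.

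**Figure D2:**
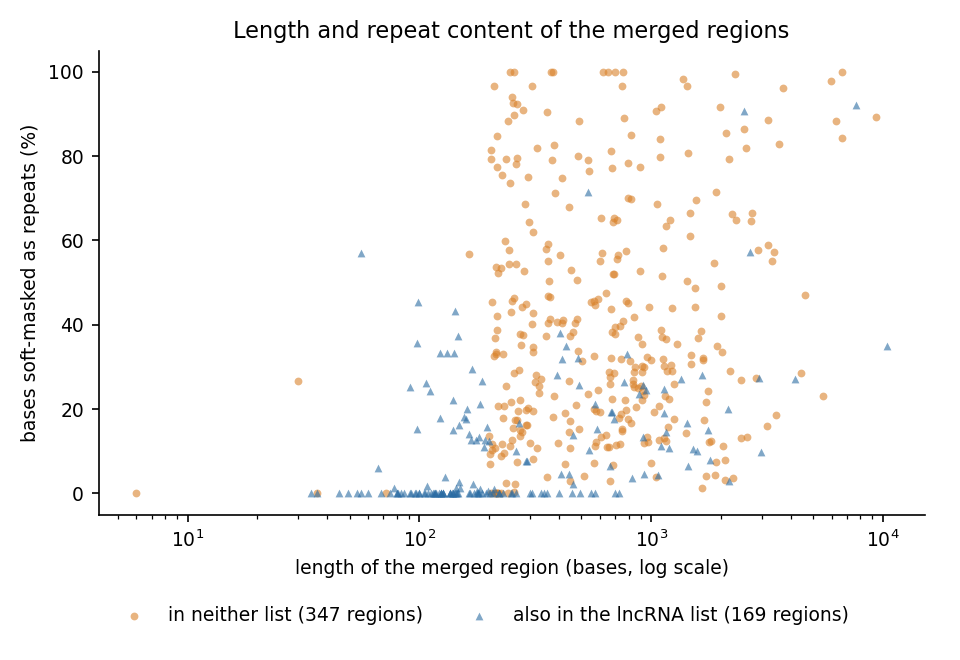
Each point is a merged region, placed by its length in bases (log scale) and by the percent of its bases that the reference marks as repeats. Regions in the lncRNA list (triangles) gather at short lengths with little repeat (median 181 bases and 2.7%), and those in neither list (circles) at longer lengths with more (median 639 bases and 34.6%).

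The types that the lists give to circRNAs followed the same division. The files named the types exonic, sense overlapping, intronic, intergenic and antisense without defining them. Of the 169 regions in the lncRNA list, 116 were exonic, 43 sense overlapping and 10 intronic. Of the 347 in neither list, 315 were sense overlapping, 25 intronic, 6 intergenic and 1 antisense, with 0 exonic. Of the exonic-type peaks in the lncRNA list, 95.5% to 100% per library had the exact ends of an annotated exon, so their length is that of the exon.

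Within each library the mRNA-absent peaks were set against the shared peaks, with an exact sign-flip permutation test over the 6 libraries (two-sided, smallest possible p 0.03125) and adjustment over 8 comparisons. Among the 8 was the lncRNA-list share, which was fixed by construction. The exonic share was 34.4% against 73.2%, lower in 6 of 6 libraries, and the sense overlapping share 59.1% against 24.9%, higher in 6 of 6 (exact permutation, adjusted p = 0.0417 for each). The intronic share was 5.73% against 1.72%, higher in 6 of 6 (exact permutation, adjusted p = 0.0417). The authors screened the mRNA list for peaks on exons of mRNAs, and 96.9% to 97.9% of the shared peaks per library overlapped coding sequence. The rule itself thus favoured these differences in type, and their p-values are no independent support for them. The median peak was longer in 6 of 6, at 657 against 329 bases (exact permutation, adjusted p = 0.0417). Of the exonic-type shared peaks, 92.2% to 99.6% per library had the exact ends of an annotated exon. The rule thus bears on length as well, and this p-value is no independent support for the difference in length. The longer median came from the peaks in neither list, since the median of those in the lncRNA list was below that of the shared peaks in each library, for example 198.5 against 381.5 bases in control A. With lists of equal length the difference was 124 bases and did not pass (exact permutation, adjusted p = 0.0833), and the exonic, sense overlapping and intronic shares kept their direction at an adjusted p of 0.05. The median fold enrichment was 17.2 against 18.4, lower in 5 of 6 libraries, a difference that did not pass (exact permutation, adjusted p = 0.188). The intergenic share, 0.649% against 0.0419%, did not pass either (exact permutation, adjusted p = 0.0714).

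Between the groups, the intronic share of the mRNA-absent peaks was 4.94%, 3.85% and 5.00% in control A to C and 6.79%, 8.02% and 5.76% in H/R A to C. All H/R libraries were above all controls (exact permutation p = 0.1, adjusted p = 0.257), on 4 to 22 peaks per library. The exonic share was 38.6% ± 5.56 in the control and 30.2% ± 6.73 in H/R (exact permutation p = 0.2), while the sense overlapping share 56.0% ± 4.94 and 62.2% ± 7.73 (exact permutation p = 0.4). Both differences turned with lists of equal length.

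**Figure D3:**
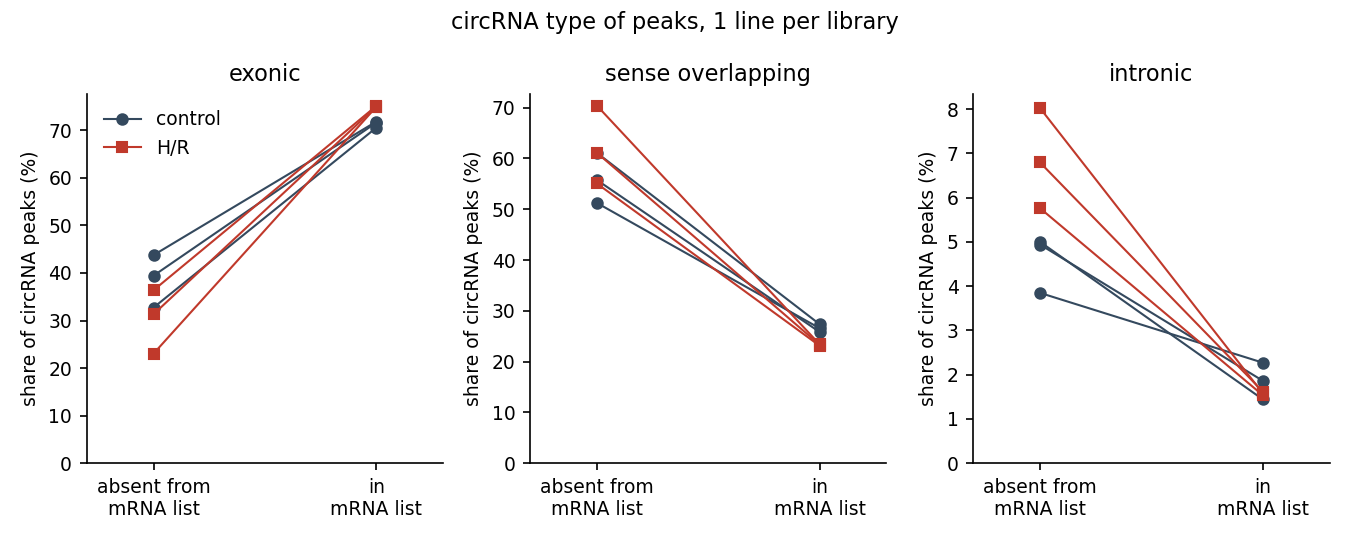
Share of the exonic, sense overlapping and intronic type among the mRNA-absent peaks (left points) and the shared peaks (right points), in percent, with 1 line per library. In all 6 libraries the exonic share was lower and the other shares higher among the mRNA-absent peaks.

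DRACH was searched on the circRNA strand. At least 1 site lay in 97.4% to 99.0% of the mRNA-absent peaks per library and in 96.1% to 98.4% of the shared peaks. The density was 26.9 sites per kb against 22.5 in the shared peaks, higher in 6 of 6 libraries (exact permutation, adjusted p = 0.0417). On the opposite strand it was 16.0 to 18.2 sites per kb in the mRNA-absent peaks and 18.03 to 18.6 in the shared peaks. Most of the excess lay in repeats. Counting only bases outside the soft-masked repeats, the difference was 0.35 sites per kb (exact permutation p = 0.25), and without the peaks of Erdr1 it was 2.43 sites per kb (exact permutation p = 0.03125). The Erdr1 window shown above is an array of AGACAGACA units, of which the whole region 4 of that host held 78 on the plus strand and 0 on the minus strand, and 340 DRACH sites on the plus strand against 77 on the minus strand in 3576 bases. The ends of the Erdr1 circle, given next, read as splice sites on the minus strand only, so its true strand is uncertain and its sites may have been counted on the wrong one.

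The ends of the listed circles were read from the reference as well. For 490 of the 516 regions (95.0%) the bases just outside the circle were AG before its first base and GT after its last, the usual acceptor and donor. For the other 26 they were AC and CT, which are AG and GT when read from the opposite strand, and 13 of these 26 were the Erdr1 regions. Junctions are shown as the last 15 bases of the circle in lower case followed by its first 15 in capitals, the joined sequence that a read would have to cross to identify the circle. Kat6b and Trim2 were circles from circBase, Rbm39 one from a published collection, and Malat1 and Erdr1 ones listed without a database source.
Kat6b, circle chr14:21618891-21637640, plus strand: ttctcattgatttcaGACACCCATCCTGTC
Rbm39, circle chr2:156161568-156167750, minus strand: tatggatttattacaCTCCGGACCAAAATT
Trim2, circle chr3:84190513-84210354, minus strand: tgatcttccgagtcgCAGCGTGCAGGGTCG
Malat1, circle chr19:5801899-5802303, minus strand: aagacatacaggaagGTTACCTAAATAGAA
Erdr1, circle chrY:90726951-90797542, plus strand: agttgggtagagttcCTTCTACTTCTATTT

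Presence across libraries was the next question. Of the 516 regions, 56 (10.9%) were called in all 6 libraries, where the share among the regions of all circRNA peaks was 24.0%. They were 39 of the 169 regions in the lncRNA list (23.1%) and 17 of the 347 in neither (4.90%). Another 14 regions (2.71%) were called in all 3 H/R libraries and in no control library, against 6.34% of the regions of all circRNA peaks, and 9 of the 14 were in the lncRNA list. None was called in all 3 control libraries and in no H/R library, as was the case for 0% of the regions of all circRNA peaks. Over all mRNA-absent regions, the share called in all 6 and the share called only in H/R were thus below the background. By set, the regions in the lncRNA list were near it, at 23.1% and 5.33%. Those in neither list were well below it, at 4.90% and 1.44%. None of the 14 regions was covered by a peak of any of the 3 lists in a control library.

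The 10 regions called in all 6 libraries with the highest p scores came from genes of varied function. Tpm4, a tropomyosin that binds actin filaments, was tied with Malat1 and Sec63 at a p score of 3100 in every library, a value that 65 of the 1180 peaks shared. Its region 1 (chr8:72138588-72141264) overlapped coding sequence and the antisense lncRNA Gm26586. The fold enrichment there was 56.1, 68.7 and 78.0 in control A to C and 23.7, 62.3 and 47.5 in H/R A to C, and the groups overlapped.

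Malat1, a nuclear lncRNA that gathers at splicing speckles, was called as a circle of 405 bases that coincided with the peak (chr19:5801899-5802303). Its fold enrichment was 52.1, 42.9 and 46.8 in control A to C and 17.2, 27.2 and 14.4 in H/R A to C. Sec63, a subunit of the protein translocon of the endoplasmic reticulum, gave 29.1, 49.7 and 32.9 in the controls and 16.6, 25.8 and 12.8 in H/R in its region 2 (chr10:42812195-42813325). In Malat1 and Sec63 every H/R value was below every control value. The same order held for the median of all mRNA-absent peaks, and a deposited fold enrichment depends on the background of its library.

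The Ywhae exon, which encodes part of the 14-3-3 epsilon adaptor, had fold enrichments of 31.2, 36.5 and 32.0 in control A to C and 9.64, 17.0 and 12.3 in H/R A to C. Thoc2, a subunit of the THO complex that couples transcription to mRNA export, gave 75.7, 66.6 and 56.7 in the controls and 24.1, 52.6 and 17.5 in H/R (region 2, chrX:41814198-41814628). Neither gene showed an overlap between the groups. Srpk1, a kinase of SR splicing factors, gave 44.7, 42.7 and 41.3 in the controls and 25.5, 31.3 and 20.7 in H/R (chr17:28599471-28599869), also without overlap. Rabep1, an effector of the endosomal GTPase Rab5, gave 39.8, 46.2 and 49.2 against 14.1, 38.2 and 7.92 (region 2, chr11:70908187-70909074), and Erc1, a scaffold of the cell cortex and the presynaptic active zone, 138, 122 and 76.1 against 29.1, 49.4 and 39.9 (chr6:119824386-119825209).

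Trim2 and Erdr1 broke this pattern. Trim2, an E3 ubiquitin ligase of neurons, had fold enrichments of 73.7, 107 and 47.2 in control A to C and 57.8, 49.2 and 41.5 in H/R A to C (chr3:84190513-84191236), and H/R A and B were above control C. Erdr1, a gene at the pseudoautosomal end of the Y chromosome, gave 77.5, 41.3 and 88.9 in the controls and 20.1, 112 and 16.6 in H/R in its region 4 (chrY:90733923-90737498), where H/R B was the highest of all 6 libraries. The reference marks 83.0% of this region as repeat. Of the 10 regions, 7 had every H/R value below every control value, and Tpm4, Erdr1 and Trim2 did not. The same count was not made over all regions called in all 6 libraries. The library medians of all mRNA-absent peaks and of the shared peaks were separated in the same direction, so the 7 do not set these regions apart.

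**Figure D4:**
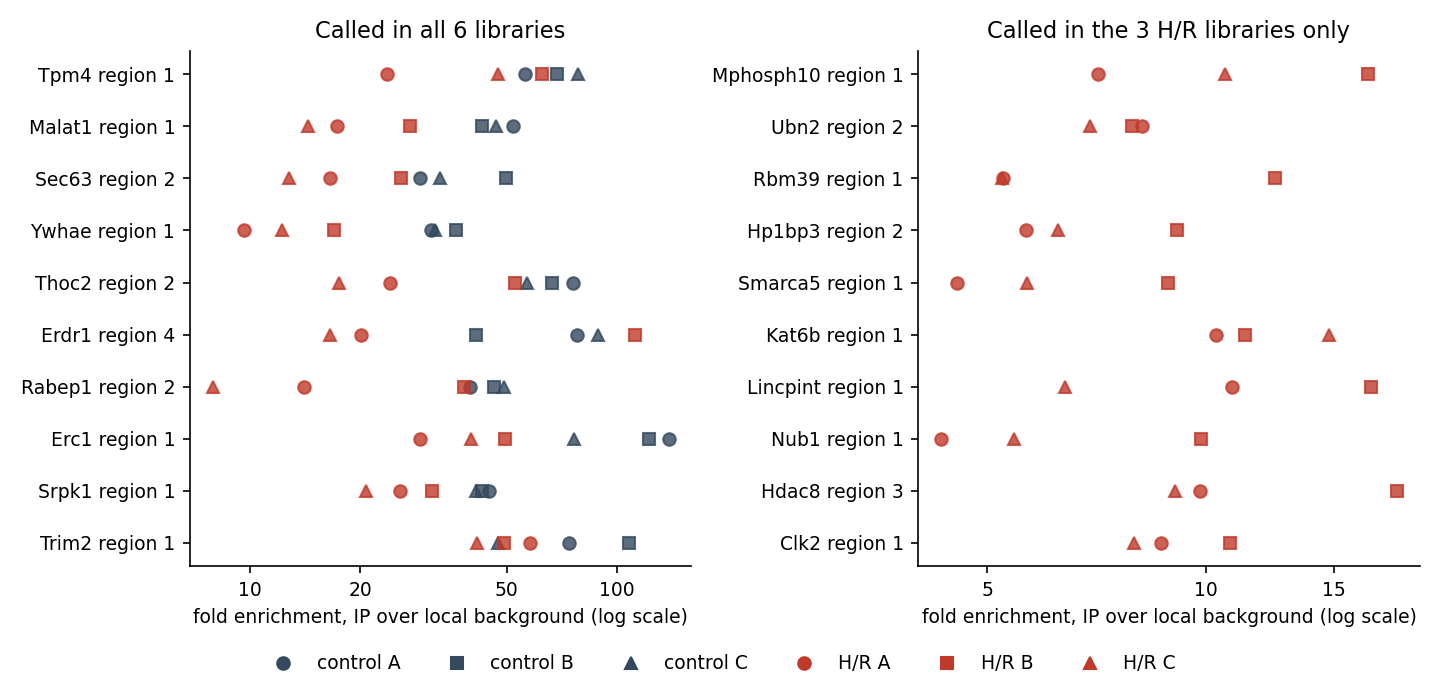
Deposited fold enrichment (log scale) of the 10 regions of highest p score called in all 6 libraries (left) and of 10 of the 14 regions called in the 3 H/R libraries and no control library (right), with 1 point per library. On the left the H/R points lie below the control points for all regions but Tpm4, Erdr1 and Trim2. On the right the points lie between 4.32 and 18.3.

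The regions called in the 3 H/R libraries only had modest fold enrichments, from 4.32 to 18.3 in the 10 named by p score. Mphosph10, a component of the U3 small nucleolar ribonucleoprotein, had the highest of the lowest p scores (189), with fold enrichments of 7.11, 16.7 and 10.6 in H/R A to C. Rbm39, an RNA-binding splicing coactivator, gave 5.25, 12.5 and 5.24, and Clk2, a kinase of splicing factors, 8.66, 10.8 and 7.96 (chr3:89168695-89168923). In all 10 named regions but Kat6b and Ubn2, H/R B was the highest of the 3 values. H/R B also had the highest median over all its mRNA-absent peaks, at 13.9 against 7.79 in H/R A and 7.84 in H/R C.

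Other exons came from Hp1bp3, a relative of the linker histones, Smarca5, the ATPase of the ISWI remodellers, and Kat6b, a histone acetyltransferase. In H/R A to C their fold enrichments were 5.66, 9.12 and 6.25 for Hp1bp3 region 2, 4.55, 8.88 and 5.67 for Smarca5 region 1 and 10.3, 11.3 and 14.8 for Kat6b. The Kat6b exon was the shortest of the 10, at 56 bases. Ubn2, a subunit of the HIRA histone chaperone complex, was called in an intron that neither other list covered (region 2, chr6:38445509-38446305), at 8.16, 7.91 and 6.92. Hdac8, a deacetylase that acts on cohesin, gave 9.80, 18.3 and 9.06 in its intronic region 3 (chrX:102328409-102329704).

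Of the remaining named regions, Lincpint, a p53-induced lncRNA, gave 10.9, 16.9 and 6.39 in H/R A to C (region 1, chr6:31141634-31142827). Nub1, which lowers the level of the ubiquitin-like protein NEDD8, gave 4.32, 9.86 and 5.45 on a coding exon that overlaps the antisense lncRNA Gm26648 (chr5:24697005-24697187). The other 4 of the 14 were regions of Gle1, Gbe1 (region 5), Phkb and Hdac8 (region 11). At a fold enrichment of 10 or more the number fell from 14 to 1 region, and with lists of equal length to 0. Without H/R B there were 43 such regions, and without control A there were 31.

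By type, the region of highest p score called in at least 3 libraries was the Top2a exon shown above among the exonic ones. Top2a encodes the DNA topoisomerase of dividing cells. This exon had a p score of 3100 in control A and H/R A to C, with fold enrichments of 56.1, 32.5, 52.5 and 36.4. In control B and C another listed peak covered the place, so its absence there was one of peak identifier and not of position. The same occurred at 27 of the 516 regions (5.23%), in at least 1 library each. Of the intronic type the first was Mir8115, a microRNA gene (chr11:87121410-87122199), with 22.4, 13.3 and 13.9 in control B and H/R A and B and another peak at the place in the remaining libraries.

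The 516 regions named 256 host symbols, 160 of them with 1 region, and 18 regions had no host symbol. The circles that held an mRNA-absent peak numbered 281 of the 1112 circles in the lists, and 160 of the 281 also held a shared peak in some library. By chromosome the share of mRNA-absent regions among all circRNA regions was 73.7% on Y (14 of 19), 35.7% on 17 (41 of 115) and 35.1% on X (20 of 57), and it was lowest on 12 with 8.43% (7 of 83). Single hosts weighed on these shares. Erdr1 accounted for 13 of the 14 regions on Y and Hdac8 for 11 of the 20 on X.

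Erdr1 (13 regions), Hdac8 (11), Plcl2 and Zeb1 (9 each) and Ube2e2 (8) had the most regions. Over all 516 mRNA-absent regions, 161, 102 and 79 were called in control A to C and 259, 185 and 365 in H/R A to C. The hosts were chosen by their number of regions, so the longer H/R lists weighed more on the choice. Higher counts of a host in H/R are thus not read as particular to it. All Erdr1 regions lay in 1 listed circle of 70592 bases, and all Hdac8 regions in 1 of 78260 bases, so the regions of a host share their circle and are not independent. Erdr1 regions were called 7, 2 and 2 times in control A to C and 6, 4 and 9 times in H/R A to C. The groups overlapped.

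Hdac8 had 3, 2 and 1 of its regions called in control A to C and 9, 7 and 9 in H/R A to C. These counts did not overlap between the groups, which was also the case over all mRNA-absent regions. Of the 11 regions 10 were intronic and 1 lay on a noncoding exon, and no shared peak was listed for this host in any library. Its regions 3 and 11 were called in all H/R libraries and in no control. Region 6, called in 5 libraries, had fold enrichments of 16.7 and 22.5 in control A and B against 9.02, 15.6 and 13.0 in H/R A to C, so the H/R values were the lower ones there.

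Plcl2, which encodes a phospholipase C-like protein without catalytic activity, had 3, 4 and 1 of its 9 regions called in control A to C and 6, 5 and 5 in H/R A to C, all in introns. Its region 8 (chr17:50681950-50683087) was called in all 6 libraries, at 32.0, 39.6 and 27.3 in the controls and 14.8, 12.0 and 11.4 in H/R. For Plcl2 the lists also held 2 to 5 shared peaks per library.

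**Figure D5:**
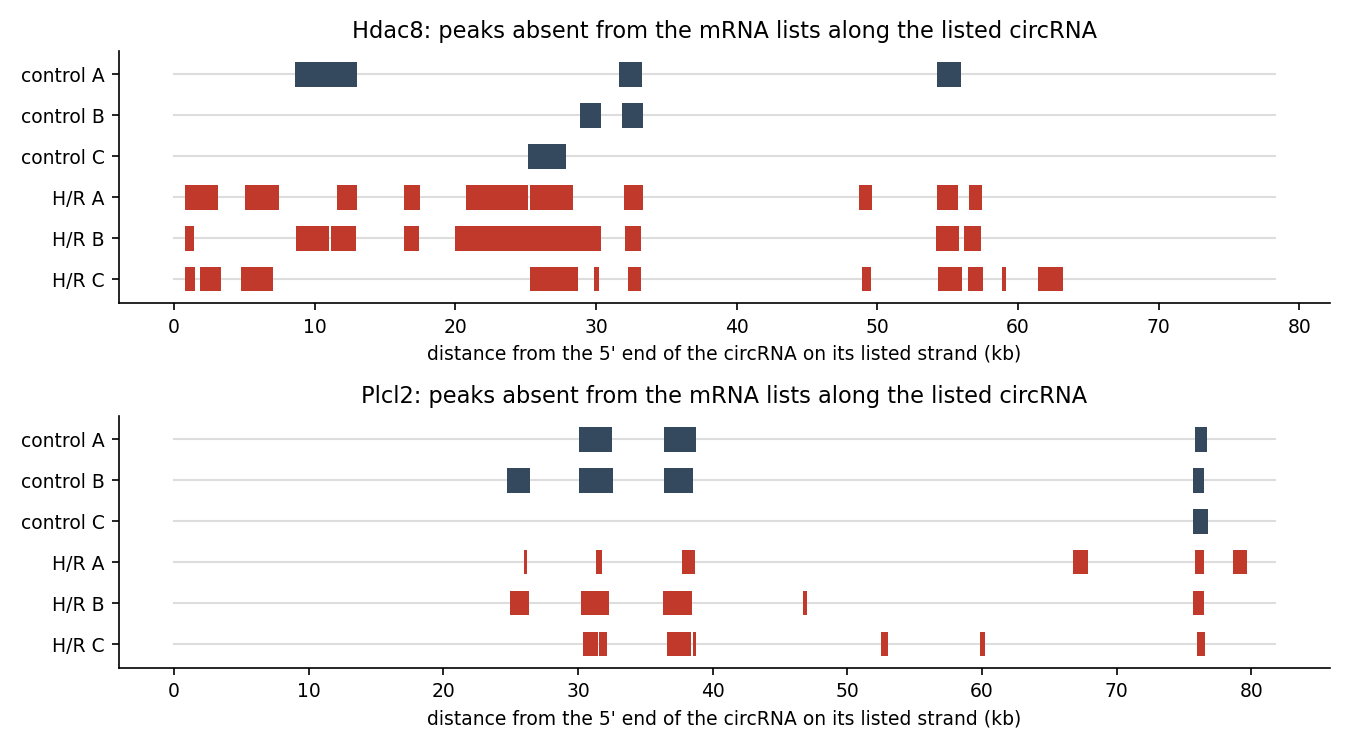
Position of the mRNA-absent peaks along the listed circles of Hdac8 (78260 bases) and Plcl2 (81733 bases), in kb from the circle's 5′ end on its listed strand, with 1 row per library. Bars are the peaks as deposited, dark for control and red for H/R. In Hdac8 the H/R rows carry 10, 8 and 11 peaks and the control rows 3, 2 and 1. Over all hosts the mRNA-absent peaks numbered 265, 187 and 382 in H/R A to C and 162, 104 and 80 in control A to C.

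Zeb1, a zinc finger repressor of epithelial genes that is expressed in neural progenitors, had 3, 2 and 2 of its 9 regions called in control A to C and 3, 3 and 7 in H/R A to C. Its regions 1 and 9 were called in all 6 libraries, the first an intronic stretch of 6247 bases of which 88.4% is repeat. Region 1 had fold enrichments of 48.0, 42.8 and 31.1 in the controls and 16.4, 26.1 and 13.5 in H/R. Ube2e2, a ubiquitin-conjugating enzyme, had 2, 1 and 0 of its 8 regions called in the controls and 1, 1 and 6 in H/R. The 6 regions of H/R C were called in no other library.

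Hosts were also read against lists of genes. Of all 938 host symbols in the circRNA lists, 256 (27.3%) held an mRNA-absent region and 849 a shared peak. The gene lists were not limited to such hosts, so their shares are not like for like and no enrichment is read from them. Of 38 genes known to give abundant or conserved circRNAs in mouse or human, 6 held an mRNA-absent region and 20 a shared circRNA peak (Tulp4, Phf21a, Ankib1, Kat6b, Birc6 and Smarca5 held the former). Of 47 noncoding RNA genes 2 did, Malat1 and Tug1, and none of the 47 held a shared peak. Of 21 neural stem cell markers 1 held an mRNA-absent region and 1 a shared peak. Of 23 genes of the m6A machinery and 20 hypoxia genes 0 held either, so none of these symbols was named as a circRNA host in the lists. Genes were matched by symbol, so a host listed under another symbol would be missed.

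Tulp4, a tubby-like protein thought to serve as an adaptor of ubiquitin ligases, had 5 regions, of which regions 2 and 3 were called in all 6 libraries. Region 3 (chr17:6136690-6139660) had fold enrichments of 13.8, 15.6 and 15.8 in control A to C and 9.50, 13.1 and 6.15 in H/R A to C, without overlap. Ankib1, an E3 ubiquitin ligase of the RBR kind, had an intronic region of 3692 bases in all 6 libraries (region 2, chr5:3763387-3767078), at 32.5, 22.7 and 28.6 in the controls and 21.4, 24.1 and 12.4 in H/R. There H/R B was above control B, and 96.1% of the region is repeat.

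The remaining listed hosts were called in fewer libraries. Phf21a, a reader of unmodified histone H3 tails, was called in 1 control and 2 H/R libraries in region 1 and in 2 H/R libraries in region 2. Birc6, a very large inhibitor of apoptosis, was called only in H/R A, at a fold enrichment of 3.74 on an exon of 132 bases. Tug1, an lncRNA, was also called only in H/R A, at 11.01 with a p score of 3100, in a circle of 250 bases whose flanks were AC and CT. Msi2, an RNA-binding protein of stem cells, was called in an intron in H/R A alone, at 4.98 (chr11:88367283-88367605). These single calls rest on 1 library each.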

How the data were processed

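Per the labels and the study's methods, total RNA of C17.2 cells was immunoprecipitated and reads were trimmed with cutadapt (1.9.3). Reads of the inputs were aligned to mm10 with STAR, and those of every library with HISAT2 (2.0.4). Peaks were called by MACS (version not given in the sources used here) for each IP against its input. The authors screened and annotated the peaks with their own program. Many deposited peaks end at exon ends. Each deposited peak has a score (10 times −log10 of p), a fold enrichment as a ratio over local background, a false discovery rate in percent and a length in bases. The deposited lists give no read numbers, so the depth behind a value is unknown here and no interval that needs it is given.

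Members, hosts and gene lists were chosen with earlier results of these data known. The rule was applied by peak identifier, peaks were merged at an overlap of 1 bp, and presence was taken per library. Named regions were up to 10 called in all 6 libraries and up to 10 called only in H/R, by the highest of their lowest p scores, the leader of each type called in at least 3 libraries, the 5 hosts with the most regions, and every host on a gene list. Others named were chosen after their values were seen. Group means were compared by exact permutation and pairs within libraries by exact sign flips, with Benjamini-Hochberg adjustment at 0.05 (Python 3.11.15, SciPy 1.17.1, NumPy 2.4.6). The code was tested on simulated data. Sequences came from RefSeq's GRCm38.p6 assembly (pysam 0.24.0) and annotation from GENCODE vM21. The fold enrichments of named regions were described and not tested. Alternatives were a fold enrichment of at least 10, a p score of at least 100, lists of equal length, absence by position, overlap of 0.5 of the shorter region, each library left out, and 5 settings chosen after seeing the data.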

Additional observations from a re-analysis of the deposited data

How the results depend on the processing

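No paired analysis was possible because the lists carry letters and the labels carry replicate numbers, with nothing to link them, so the planned replicate block was not run. Of 208 alternatives to 20 results, 143 kept direction and side of the threshold (or stayed within 1.5 times for counts). The 9 comparisons of H/R with control could not pass 0.05 at any setting, since their smallest exact permutation p was 0.1. For them only a change of direction could be seen, and a fall from 163 to 1.67 peaks per library counted as kept. The tally is thus no measure of how stable these differences were. With lists of equal length, H/R minus control turned to -12.3 peaks, -1.75 percentage points for the share of circRNA peaks, 12.7 for the lncRNA-list share, 7.03 for the exonic and -10.3 for the sense overlapping share. The intergenic difference turned to 0.0368 points at a fold enrichment of 10 or more. The median fold, mRNA-absent minus shared, turned to 0.83 with a p score of at least 100. With lists of equal length the comparisons within libraries kept their direction, at an adjusted p of 0.05 or more, with 124 bases for length, -24.2 points for the exonic, 20.1 for the sense overlapping, 3.57 for the intronic and 69.3 for the lncRNA-list share and 6.20 DRACH sites per kb. The direction of the lncRNA-list share within libraries was fixed by construction in every setting. The DRACH difference outside repeats, 0.35 sites per kb, was chosen after seeing the data, as were the settings without Erdr1, by lncRNA set and without any control peak. The cause of these changes was not tested.

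Regions called only in H/R numbered 1 at a fold enrichment of 10 or more and 0 with lists of equal length. Those called only in control numbered 1 and 4, and those called in all 6 numbered 36 and 31, and 34 with a p score of at least 100. Leaving out each library in turn gave 15 to 43 regions only in H/R (24 without H/R A or C, 43 without H/R B, 31 without control A) and 0 to 3 only in control, and 56 to 78 in all libraries left. It gave differences within libraries of 302 to 353 bases for length, -40.9 to -36.1 points for the exonic, 31.6 to 36.1 for the sense overlapping, 3.52 to 4.50 for the intronic and 47.9 to 54.5 for the lncRNA-list share, and 3.88 to 4.76 DRACH sites per kb. With 5 libraries the smallest exact permutation p is 0.0625, so none could pass. The intergenic share, H/R minus control, ran from -0.532 to 0.0851 points, and turned without control A.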
